A study of Arabidopsis thaliana with 18 samples.

Results

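Genes of the UDP-glycosyltransferases (UGTs) and glutathione transferases (GSTs) of Arabidopsis thaliana were examined on 18 ATH1 arrays of the accession Col-0. Members were all probe sets annotated to exactly 1 gene whose symbol begins with UGT, GSTU, GSTF, GSTZ, GSTT or GSTL followed by a digit, without UGT76B1 and UGT74B1, with no condition on signal. The rule found 58 members, each for a different gene, 45 of them UGTs and 13 GSTs, among 22810 probe sets and among 13286 genes that a probe set names alone. RefSeq's gene table holds 105 symbols of this UGT or GST pattern, so the members do not cover the whole families. Col-0 plants had received either the wetting agent silwet at 0.02% alone (9 arrays) or 0.30 mM salicylic acid (SA) in 0.02% silwet (9 arrays), so that silwet was shared by all arrays. The title numbers, joined to the treatment, serve as array names from silwet 1 to silwet 9 and from SA 10 to SA 18. Each treatment falls into 3 triplets of title numbers with 3 arrays each: silwet 1 to 3, 4 to 6 and 7 to 9, and SA 10 to 12, 13 to 15 and 16 to 18. Within a triplet the titles carry replicate numbers 1, 2 and 3. The labels do not say what a triplet is, and an SA triplet was set beside the silwet triplet of the same rank by title number only. Tissue, age and harvest time are not given in the sources used here, and no label states whether plants were grown separately for each array. All p-values thus refer to the spread between these arrays, which may be technical.

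UGTs move a sugar from a UDP-sugar to a small acceptor such as a flavonol, a phenolic acid, a hormone or a foreign compound, which usually makes it more soluble and ready for storage in the vacuole. GSTs join glutathione to reactive or foreign compounds, or bind and reduce small molecules, and the tau class (GSTU) is specific to plants. SA itself is a substrate of the system: plants store it mainly as glucose conjugates, and several UGT and tau-class genes are known to be switched on by SA and by xenobiotics.

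Values are MAS5 signals as deposited, which have no unit and are scaled to a common mean on each array. Differences are on the log2 scale of these signals, after signals under the 20th percentile of an array were raised to that percentile, the floor, which lay between 4.36 and 6.66. Levels of different probe sets cannot be set against each other, so each member is compared only with itself. A member was marked as low in signal where its mean log2 signal over all arrays was under the 40th percentile of all probe sets, a log2 value of 4.23 or a signal of 18.8. By this mark 28 members were low and 30 were tested, 23 UGTs and 7 GSTs, and these 30 are not all members. The low members nearest to the limit were UGT73D1, with a mean log2 signal of 4.17, and UGT85A7 at 4.01, and the tested members nearest to it were GSTF4 at 4.57 and UGT72E2 at 4.64. Tests were made with limma on all 13652 probe sets above the filter, and a probe set was called where its p-value adjusted over these by Benjamini-Hochberg was under 0.05.

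The arrays had median signals between 29.7 and 36.3, and any 2 of them correlated at 0.925 to 0.976 over all probe sets on the log2(signal + 1) scale. SA 10 stood apart in the actin control, whose log2 ratio of the 3' to the 5' probe set was 6.85 there, whereas the remaining 8 SA arrays ranged from 0.45 to 1.51. It stood apart in the GAPDH control as well, at 3.36 beside -0.06 to 1.32 on the remaining 8 SA arrays. Differences printed for single tested members that rest on SA triplet 1 are therefore also given without SA 10 where this changes a call or a sign or moves the value by over 1.5 times. Out of 10 markers listed for leaf, 7 for root and 11 for flower and seed, only the leaf markers RCA, LHCB4.1 and LHCB4.2 and the root marker PYK10 were named on the array. They were all above the filter, and none of them was called between SA and silwet in triplet 1 (limma, adjusted p from 0.127 to 0.963). The leaf markers were all lower with SA there, by -0.33 for RCA, -0.31 for LHCB4.1 and -0.23 for LHCB4.2, and PYK10 differed by -0.06. The unadjusted p was 0.0274 for RCA and 0.0357 for LHCB4.1 (limma). In such samples fewer cells of a type and less RNA per cell cannot be told apart.

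By subfamily, the tau class held 11 members, of which 5 were tested. The lambda and phi classes had 1 member each, GSTL3 and GSTF4, both tested, and no zeta or theta gene was a member. Among the UGTs, 3 of 9 members of UGT71 were tested, 3 of 4 of UGT72, 2 of 7 of UGT73, 1 of 2 of UGT74, 4 of 7 of UGT76, 2 of 3 of UGT78, 2 of 5 of UGT84 and 3 of 5 of UGT85. UGT80B1, UGT87A2 and UGT88A1, the single members of their subfamilies, were all tested.

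**Figure D1:**
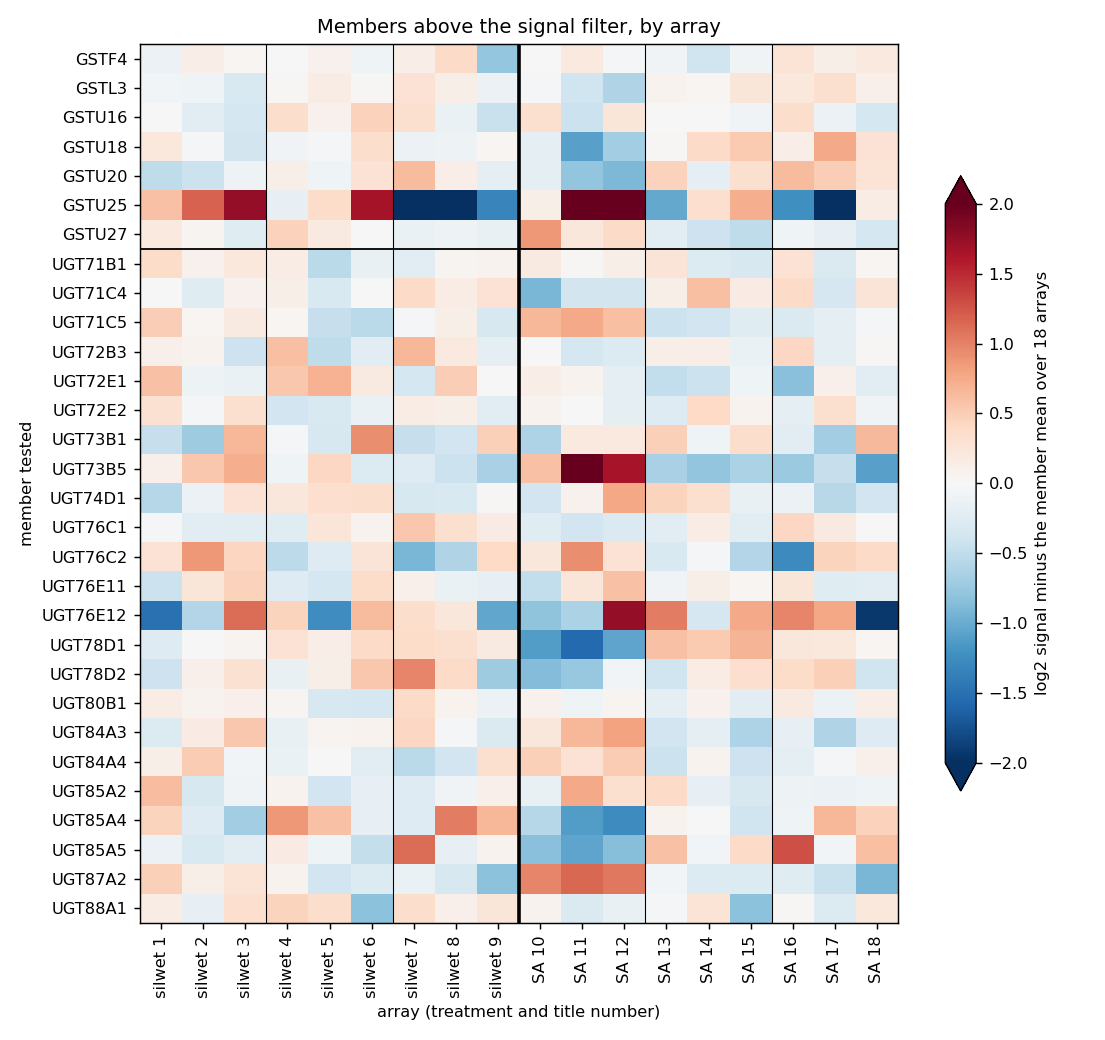
Log2 signal of the 30 tested members (rows, 7 GSTs above the line and 23 UGTs below it) on each array (columns), minus the member's mean over the 18 arrays, with colours cut at -2 and 2. The SA 10 to SA 12 columns hold the lowest UGT78D1 and the highest UGT87A2 values, and GSTU25 is low on silwet 7 to silwet 9.

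Over all 9 SA and 9 silwet arrays no member was called (limma, 0 of 30, beside 0% of all probe sets tested). That fit held the treatments without the triplets, so differences between triplets counted as spread. For UGT78D1 its SE was 0.270, beside 0.158 for the difference within triplet 1. At an unadjusted p under 0.05, 238 of the 13652 probe sets passed. In this fit UGT72E1 was the nearest member with a log2 difference of -0.42. The members' SA minus silwet differences split evenly here, 15 above and 15 below 0. The question of a response to SA was therefore followed within each triplet.

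In triplet 1, SA was accompanied by a lower signal of UGT78D1 and by higher signals of UGT87A2 and UGT73B5, and these were the 3 members called of 30. Called probe sets made up 12.3% of all tested there, 6.19% higher and 6.11% lower with SA, so the members' 2 higher and 1 lower were near the background. The median difference was -0.06 over the tested members, 14 of them above 0 and 16 below, and -0.05 over all probe sets tested.

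UGT78D1 (AT1G30530), the flavonol 3-O-rhamnosyltransferase, had signals of 65.6, 78.2 and 81.1 on silwet 1 to 3 and of 36.1, 26.6 and 37.6 on SA 10 to 12. All SA arrays lay below all silwet arrays of this triplet, and SA 11 was the lowest of all 18 arrays. The log2 difference was -1.18 (limma, SE 0.158, adjusted p = 0.000437), and it was called when any 1 of the 18 arrays was left out. In triplet 2 the order was the other way: SA arrays read 118, 112 and 125 and silwet arrays 95.7, 85.6 and 101. The groups did not overlap there either, but the difference of 0.33 was not called (limma, adjusted p = 0.890). In triplet 3 SA arrays read 90.95, 90.02 and 79.96 beside 101, 97.2 and 88.2 with silwet, and the groups overlapped. The SA minus silwet difference itself differed between the triplets, by 1.51 for triplet 2 over triplet 1 and 1.04 for triplet 3 over triplet 1 (limma F test, adjusted p = 0.00138). Within the shared replicate numbers, SA was lower than silwet in 3 of 3 pairs of triplet 1, higher in 3 of 3 of triplet 2 and lower in 3 of 3 of triplet 3.

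UGT78D2 (AT5G17050), the flavonoid 3-O-glucosyltransferase, read 42.5, 60.3 and 69.97 with silwet and 30.9, 33.3 and 54.3 with SA in triplet 1. These groups overlapped, since SA 12 lay above silwet 1, and the log2 difference of -0.56 was not called (limma, SE 0.373, adjusted p = 0.357). UGT78D3, the flavonol arabinosyltransferase, was at the floor on all 18 arrays. DFR, an enzyme of anthocyanin synthesis and the only one of 19 listed phenylpropanoid genes named on the array, differed by -0.07 in triplet 1 and was not called.

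UGT87A2 (AT2G30140), known for an effect on flowering time, read 382, 296 and 329.7 on silwet 1 to 3 and 536, 607 and 567 on SA 10 to 12. The 3 SA arrays were above every other array of the series. The log2 difference in triplet 1 was 0.77 (limma, SE 0.195, adjusted p = 0.0170). It was not called without silwet 2 (adjusted p = 0.0618), silwet 3 (0.0533) or SA 11 (0.0636), while its value stayed between 0.68 and 0.87 over the 18 sets that leave out 1 array. In the later triplets the treatments lay together, with SA signals of 265, 227 and 226 beside 286, 209 and 226 in triplet 2 and 230.2, 200.2 and 145 beside 251, 219.9 and 155 in triplet 3. Both treatments overlapped in each of these. The change of the SA effect between triplets was not called (limma F test, adjusted p = 0.0891) but was called with the replicate number as a block (adjusted p = 0.0238) and without silwet 9 (0.0322).

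UGT73B5 (AT2G15480), which takes part in resistance to Pseudomonas syringae, read 41.2, 55.7 and 63.7 with silwet and 57.7, 160.0 and 120.3 with SA in triplet 1. SA 11 and SA 12 were above every silwet array, and SA 10 lay between silwet 2 and silwet 3. The log2 difference was 0.98 (limma, SE 0.305, adjusted p = 0.0456), and 1.40 without SA 10 (adjusted p = 0.00416). The call was kept in 6 of 18 sets that leave out 1 array. It was lost without silwet 1 (adjusted p = 0.141), silwet 2 (0.0793), silwet 3 (0.0623), SA 11 (0.213) or SA 12 (0.139), and without any 1 of the arrays silwet 4, 8 and 9 and SA 13 to 16 of the other triplets, at 0.0523 to 0.0584. In triplet 2 the SA arrays, at 24.4, 22.2 and 24.8, were all below the silwet arrays, at 36.4, 51.4 and 31.7, with a difference of -0.71 that was not called (limma, adjusted p = 0.789). In triplet 3 the signals were 32.2, 28.5 and 24.7 with silwet and 23.1, 27.9 and 18.2 with SA, and the groups overlapped. The SA effect differed between triplets by -1.69 for triplet 2 over triplet 1 (limma F test, adjusted p = 0.0397), a call kept in 5 of 18 sets that leave out 1 array. It was lost without the filter on low signals (adjusted p = 0.0597), as was the call in triplet 1 (0.0667). It was also lost without silwet 1, 2, 3, 4, 5, 7 or 8 (adjusted p from 0.0510 to 0.102) and without SA 11, 12, 13, 14, 15 or 18 (from 0.0512 to 0.130).

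**Figure D2:**
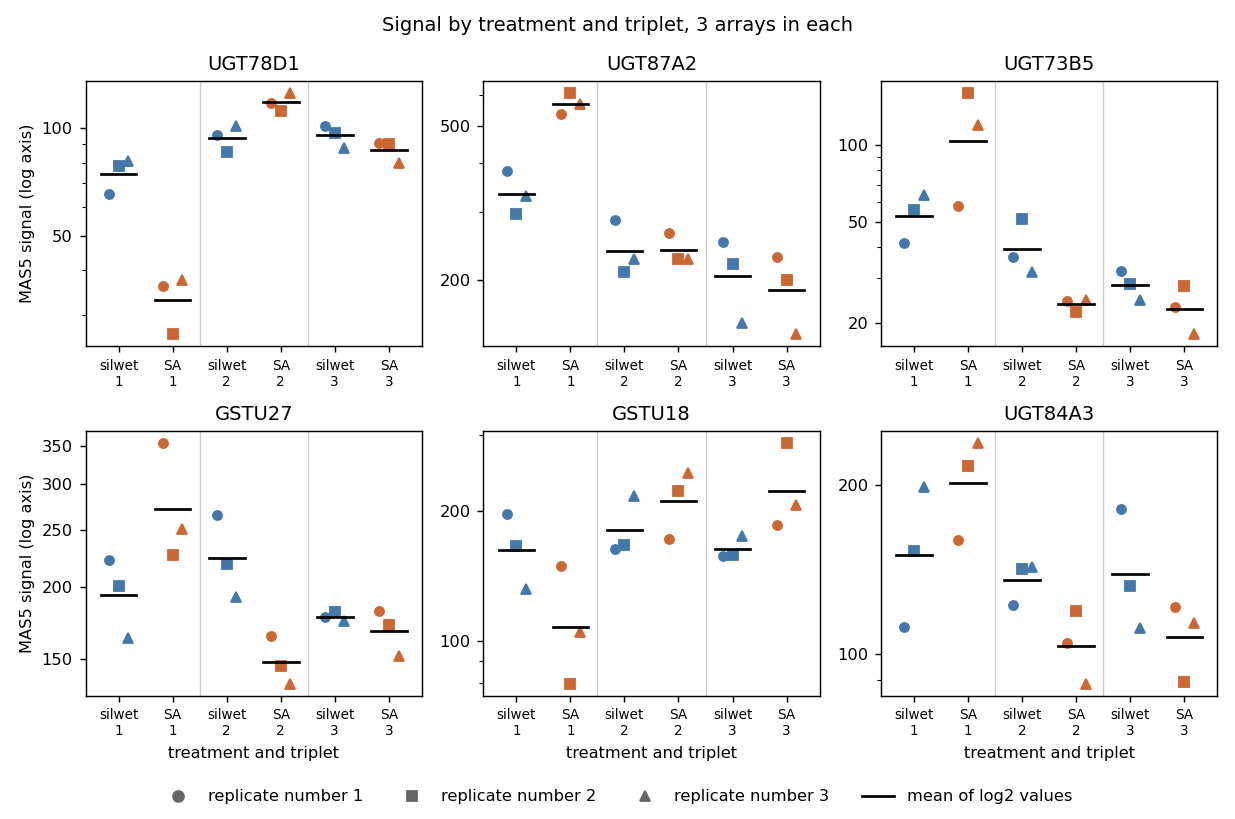
MAS5 signal (log axis) of 6 members on each array, by treatment (blue silwet, orange SA) and triplet, with the mean of the log2 values as a bar. SA arrays of triplet 1 lie below all others for UGT78D1 and above all others for UGT87A2.

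GSTU27 (AT3G43800), a tau-class GST, read 222, 201 and 163 with silwet and 354, 227 and 251 with SA in triplet 1, and 266, 219 and 192 with silwet and 164, 146 and 136 with SA in triplet 2. SA was above silwet without overlap in triplet 1, and below silwet without overlap in triplet 2. The difference was 0.49 in triplet 1 (limma, SE 0.176, adjusted p = 0.0768) and -0.59 in triplet 2 (adjusted p = 0.296), neither called. Without SA 10 the first was 0.30 (adjusted p = 0.298), and with the replicate number as a block it was called (adjusted p = 0.0181). The SA effect differed between triplets, by -1.09 for triplet 2 over triplet 1 (limma F test, adjusted p = 0.0282). That call was lost without silwet 3, 4 or 5 (adjusted p = 0.0809, 0.0659 and 0.0503) and without SA 10, 14 or 15 (adjusted p = 0.0594, 0.0603 and 0.0617).

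The SA effect thus differed between triplets for 3 of 30 members, UGT78D1, GSTU27 and UGT73B5, beside 8.36% of all probe sets tested. In triplet 2 no member was called (limma, 0 of 30), beside 0% of all probe sets higher and 0.3% lower with SA, and 782 probe sets had an unadjusted p under 0.05. In triplet 3 no member was called either (limma, 0 of 30), beside 0% higher and 0.0146% lower, with 634 probe sets at an unadjusted p under 0.05.

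UGT72E1, which glucosylates the lignin precursor coniferyl aldehyde, read 248, 276 and 193 with silwet and 121, 127 and 161 with SA in triplet 2. All 3 SA arrays were below the silwet arrays there, but the difference of -0.80 was not called (limma, SE 0.261, adjusted p = 0.454). SA arrays lay below the silwet arrays without overlap in triplet 2 for 5 of 30 members, beside 6.89% of all probe sets: GSTU16, GSTU27, UGT72E1, UGT73B5 and UGT84A3. They lay above for 1 member, UGT78D1, beside 5.06%. In triplet 3 they lay above for 1 member, GSTU18, beside 4.38%, and below for 0 members, beside 6.77%.

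In triplet 1, SA arrays lay above all silwet arrays for 3 of 30 members, GSTU27, UGT71C5 and UGT87A2, beside 12.7% of all probe sets, and below them for 4, UGT71C4, UGT76C1, UGT78D1 and UGT85A5, beside 17.8%. Without SA 10 these counts were 6 and 9, beside 17.7% and 24.5% of all probe sets, where 2 SA arrays stand against 3. Without SA 10 the calls in triplet 1 were UGT73B5 and UGT87A2 higher, beside 4.64%, and GSTU18 and UGT78D1 lower, beside 5.04%. GSTU18, a tau-class GST, read 197, 166 and 132 with silwet and 149, 79.8 and 105 with SA in triplet 1, where SA 10 lay above silwet 3 and SA 11 and SA 12 below all silwet arrays. It had a difference of -0.59 with all arrays (limma, adjusted p = 0.0999) and -0.83 without SA 10 (adjusted p = 0.0302). The test of its SA effect between triplets was likewise called without SA 10 only among the arrays left out in turn (limma F test, adjusted p = 0.0328, and 0.101 with all arrays).

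**Figure D3:**
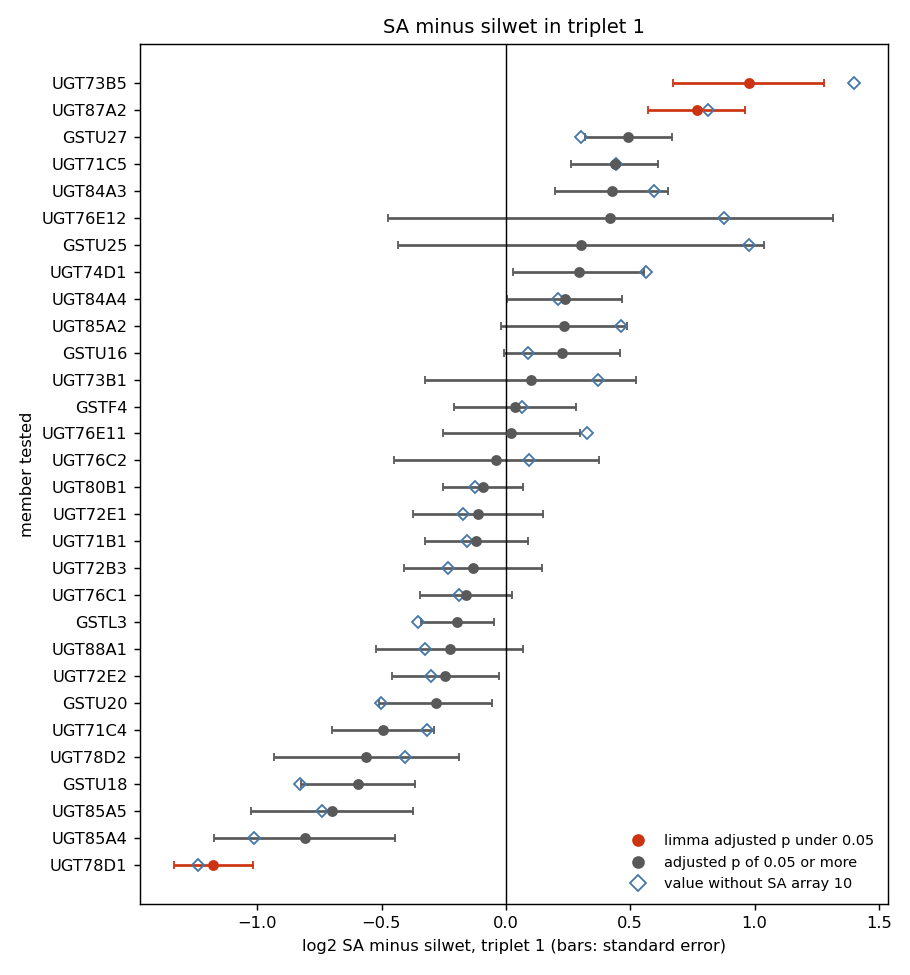
Log2 SA minus silwet in triplet 1 for the 30 tested members (filled circles with the standard error, red where called) and the same value without SA 10 (open diamonds). UGT78D1 lies at -1.18 and UGT73B5 at 0.98, and the value of UGT73B5 without SA 10 is 1.40.

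Set against each other, the 3 SA triplets differed for 13 of 30 members (limma F test), a share of 43.3% beside 30.1% of all probe sets. The silwet triplets differed for 0 of 30 (limma F test), beside 1.14%, with 1316 of 13652 probe sets at an unadjusted p under 0.05. The SA test shares its arrays with the SA minus silwet comparisons and with the test of the SA effect between triplets, so these values come partly from the same arrays. Of the 3 leaf markers 1 was called in this test: LHCB4.2 was higher by 0.29 and 0.49 in SA triplets 2 and 3 than in SA triplet 1 (limma F test, adjusted p = 0.0432). RCA, at 0.16 and 0.41 (adjusted p = 0.0732), LHCB4.1, at 0.12 and 0.34 (0.153), and the root marker PYK10, at 0.61 and -0.68 (0.199), were not called. The part of tissue composition in the members' values was not tested. Of the 13, 6 had their highest mean in SA triplet 1 and 7 their lowest. Members named from here on that were called only among the SA arrays, and the low members described further on, were in part chosen after their values were seen.

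The members highest in SA triplet 1 were UGT87A2, UGT73B5, UGT71C5, GSTU27, UGT84A3 and GSTU25. For UGT87A2 the log2 difference from SA triplet 1 was -1.25 in SA triplet 2 and -1.59 in SA triplet 3 (limma F test, adjusted p = 1.97e-05). For UGT73B5 these differences were -2.12 and -2.19 (adjusted p = 3.58e-05). Between the silwet triplets UGT87A2 had differences of -0.49 and -0.71 from the first (limma F test, adjusted p = 0.224), and UGT73B5 had -0.43 and -0.90 (adjusted p = 0.449), none of them called.

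UGT71C5 (AT1G07240), which forms the glucose ester of abscisic acid, read 178, 189.9 and 170.4 on SA 10 to 12, 83.7, 85.9 and 94.9 on SA 13 to 15 and 91.96, 98.7 and 111 on SA 16 to 18. The first triplet lay above the others without overlap, and its silwet arrays, at 158, 116 and 127, lay below it. The differences from SA triplet 1 were -1.03 and -0.84 (limma F test, adjusted p = 0.000476), while the difference from silwet within triplet 1, 0.44, was not called (adjusted p = 0.113). Between the silwet triplets UGT71C5 had differences of -0.56 and -0.31 from the first, not called (limma F test, adjusted p = 0.366). Its neighbour on the chromosome, UGT71C4 (AT1G07250), went the other way, with 95.3, 138 and 139 on SA 10 to 12 beside 177, 152 and 189.9 with silwet. Its SA arrays of triplet 1 were the 3 lowest of the 18. UGT71C4 rose by 0.84 and 0.65 in the later SA triplets (limma F test, adjusted p = 0.0101, and 0.0734 without SA 10).

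UGT84A3 (AT4G15490), one of the enzymes that make glucose esters of hydroxycinnamic acids, read 159.6, 216 and 238 on SA 10 to 12, 105, 119.6 and 88.8 on SA 13 to 15 and 121, 89.4 and 114 on SA 16 to 18. SA triplet 1 lay above the later SA arrays without overlap. The differences were -0.96 and -0.91 (limma F test, adjusted p = 0.00459). UGT84A4, its neighbour with the same kind of activity, had differences of -0.68 and -0.46 that were not called (limma F test, adjusted p = 0.0787) but were without silwet 9 (0.0412) or SA 14 (0.0462), and UGT84A1, the next gene of the run, was at the floor on all 18 arrays.

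The members lowest in SA triplet 1 were UGT78D1, UGT71C4, UGT85A4, UGT85A5, GSTU18, GSTU20 and GSTL3. UGT85A5 (AT1G22370), a gene of the UGT85 group, read 29.9, 25.8 and 29.6 on SA 10 to 12, 80.5, 51.6 and 69.8 on SA 13 to 15 and 130.3, 51.3 and 80.9 on SA 16 to 18. SA triplet 1 lay below all other arrays, with differences of 1.22 and 1.52 (limma F test, adjusted p = 0.00346). Its neighbour UGT85A2 had differences of -0.35 and -0.41 in the other direction that were not called (adjusted p = 0.393), and without SA 10 they were -0.58 and -0.64 (adjusted p = 0.149). UGT85A4 had differences of 0.87 and 1.33 (adjusted p = 0.0261), a call lost without SA 11, SA 12, SA 17 or SA 18 (adjusted p = 0.0980, 0.111, 0.0739 and 0.0615). Between the silwet triplets UGT85A4 had differences of 0.60 and 0.65 from the first, not called (limma F test, adjusted p = 0.682).

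Of the GSTs, GSTU20 (AT1G78370), which binds the jasmonate-conjugating enzyme FIN219, read 889.9, 584 and 542 on SA 10 to 12 beside 1391, 891 and 1267 on SA 13 to 15 and 1572, 1427 and 1226 on SA 16 to 18. SA 10 lay just under SA 14, so SA triplet 1 was below the others without overlap, and SA 11 and SA 12 were its lowest arrays. The differences of 0.83 and 1.10 were called (limma F test, adjusted p = 0.00303). Between the silwet triplets GSTU20 had differences of 0.45 and 0.53 from the first, not called (limma F test, adjusted p = 0.562). Its SA minus silwet difference in triplet 1 was -0.28 (limma, adjusted p = 0.456), and -0.50 without SA 10 (adjusted p = 0.183), neither called. GSTU18 read 149, 79.8 and 105 on SA 10 to 12, 172, 222 and 245 on SA 13 to 15 and 186 and 207 on SA 16 and SA 18, with SA 17 the highest of all SA arrays and SA triplet 1 below all other SA arrays. It rose by 0.97 and 1.05 from SA triplet 1 (limma F test, adjusted p = 0.00279). GSTL3, of the lambda class, whose members act as thiol transferases, rose by 0.46 and 0.55 (adjusted p = 0.0152), a call lost without SA 11 (0.0730) or SA 12 (0.119) and with median centring (0.0586). Between the silwet triplets GSTL3 had differences of 0.21 and 0.24 from the first, not called (limma F test, adjusted p = 0.723). GSTF4, of the phi class, and GSTU16 were called in none of the tests.

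**Figure D4:**
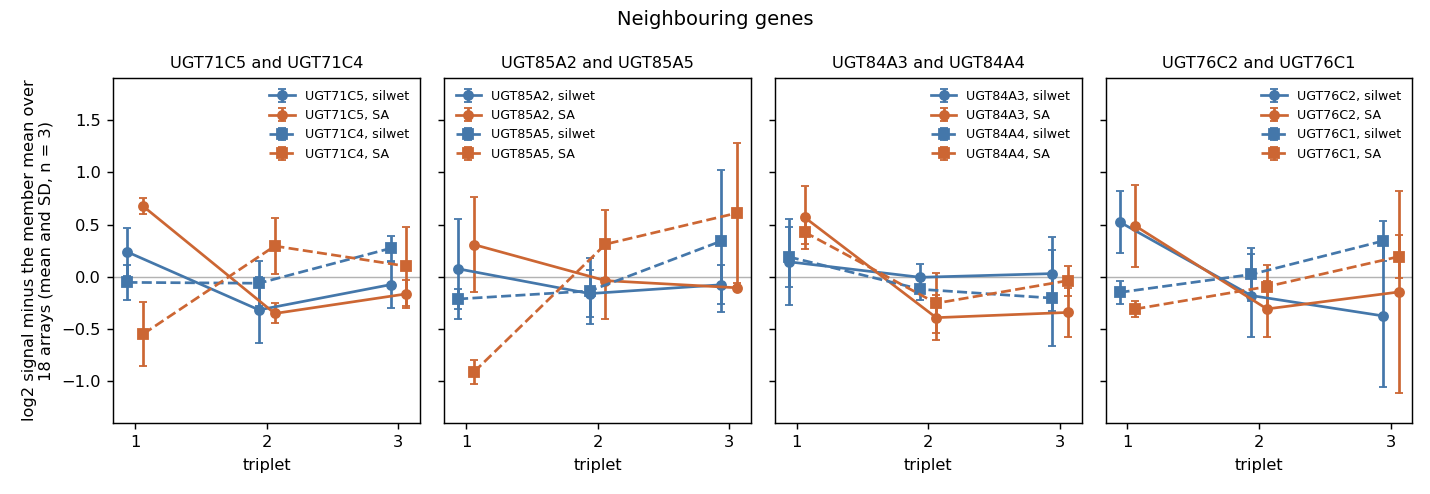
Log2 signal of 4 pairs of neighbouring UGT genes minus each member's mean over 18 arrays, by triplet and treatment, with the mean and SD of 3 arrays, where lines only join a member's points. In the SA arrays UGT71C5 falls and UGT71C4 rises from triplet 1 to triplet 2.

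GSTU25 (AT1G17180), which can conjugate the explosive trinitrotoluene, had signals of 58.6, 88.4 and 132 on silwet 1 to 3, 34.8, 50.7 and 124 on silwet 4 to 6 and 6.39, 8.70 and 15.6 on silwet 7 to 9. With SA its signals were 42.5, 173 and 175 on SA 10 to 12, 19.3, 49.4 and 64.5 on SA 13 to 15 and 16.8, 6.12 and 43.5 on SA 16 to 18. Silwet 7 to 9 lay below the other silwet arrays without overlap, and the treatments overlapped in triplets 1, 2 and 3. The silwet triplets differed by -0.55 and -3.21 from the first (limma F test, adjusted p = 0.0837), which was called with the replicate number as a block (adjusted p = 0.00274), and without SA 10 (0.0386), SA 17 (0.0469) or SA 18 (0.0483). The SA triplets differed by -1.46 and -2.72 (limma F test, adjusted p = 0.0298), a call lost without SA 11, SA 12, SA 16 or SA 17 (adjusted p = 0.116, 0.108, 0.0639 and 0.0940).

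Replicate numbers differed for 2 of 30 members, GSTU25 and UGT73B1 (limma F test), beside 8.49% of all probe sets. For GSTU25, replicates 2 and 3 differed from replicate 1 by 0.58 and 1.57 (adjusted p = 0.0257), and for UGT73B1 by -0.12 and 0.76 (adjusted p = 0.0219). Without SA 10 the differences of UGT73B1 were -0.21 and 0.67 (limma F test, adjusted p = 0.0234). Both calls were lost without silwet 6 (adjusted p = 0.0612 and 0.0612) and without SA 18 (0.0588 and 0.0553), that of GSTU25 without silwet 4 (0.0637) or silwet 7 (0.0519), and that of UGT73B1 without silwet 3 (0.0605). Without SA 10, UGT85A5 (0.0360) and UGT87A2 (0.0481) were called as well, and UGT85A5 also without silwet 5 (0.0458). Of the 6 groups of 3 arrays, replicate 1 was the lowest in 5 for GSTU25 and UGT76C2, the latter chosen after its values were seen. Among the low members it was the lowest in 6 for GSTU22 and in 5 for UGT73B4 and UGT73C1. These low members were also chosen after their values were seen, and their counts include values at the floor.

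Among the hormone-related members, UGT76C1 and UGT76C2, the cytokinin N-glucosyltransferases, lie next to each other. UGT76C1 read 39.95, 35.3 and 34.7 with silwet and 34.2, 30.98 and 33.2 with SA in triplet 1. SA lay just below silwet without overlap, by -0.16 (limma, adjusted p = 0.630), which was not called. UGT76C2 had a difference of -0.04 (adjusted p = 0.966), and of 0.09 without SA 10 (adjusted p = 0.932). UGT74D1, an auxin glucosyltransferase, read 53.6, 73.1 and 97.3 with silwet and 61.04, 84.4 and 136 with SA there, and the groups overlapped. UGT74F1, which makes SA glucoside, was at the floor on 15 of 18 arrays with a highest signal of 10.03.

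In all, 16 of the 30 tested members were called in none of the 8 tests with all arrays. UGT80B1, a sterol glucosyltransferase, stayed between 112 and 184 on all 18 arrays, and its triplet 1 difference was -0.09 (SE 0.160). UGT88A1 ranged from 237 on silwet 6 to 567 on silwet 4, so that its spread within the silwet arrays was as wide as over all arrays. UGT76E12 ranged from 7.74 to 99.8, with a standard error of 0.894 on its triplet 1 difference. UGT71B1, UGT72B3, UGT72E2, the latter a glucosyltransferase of monolignols, and UGT76E11 had triplet 1 differences between -0.24 and 0.02, and that of UGT76E11 was 0.33 without SA 10 (limma, adjusted p = 0.485).

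Of the 28 low members, 4 were at the floor on all 18 arrays, namely UGT72E3, UGT73C2, UGT78D3 and UGT84A1, and 14 were at the floor on over 9 arrays. At the floor the values have no order. A few low members were above the floor on most arrays and had their highest signals in triplet 1. UGT71B6, which glucosylates abscisic acid, read 33.7, 10.8 and 19.5 on silwet 1 to 3, 52.01, 49.2 and 33.4 on SA 10 to 12, and between 2.87 and 15.5 on the other 12. SA 10 and SA 11 were above every other array, and SA 12 lay just below silwet 1. In the fit without the filter its difference in triplet 1 was 1.20 and was not called (limma, adjusted p = 0.0766), and the SA triplets differed (limma F test, adjusted p = 9.69e-05). The test between SA triplets in that fit called 18 of the 58 members and 4157 of 22746 probe sets. As UGT71B6, UGT73D1 and UGT73B4 were picked for their high signals in triplet 1, their p-values between SA triplets are no independent test.

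UGT73D1 read 73.9, 11.9 and 19.2 on silwet 1 to 3 and 102, 50.4 and 53.5 on SA 10 to 12, and between 3.11 and 24.1 on the other 12. Silwet 1 and SA 10, the arrays of replicate number 1, were the highest of their treatments. Without the filter its difference in triplet 1 was 1.34 (limma, adjusted p = 0.115), not called, and the SA triplets differed (limma F test, adjusted p = 0.00112).

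UGT73B4, which lies next to UGT73B5 and glucosylates nitrotoluenes, read 10.96, 30.95 and 29.96 on silwet 1 to 3 and 21.6, 122 and 90.1 on SA 10 to 12. SA 11 and SA 12 were above every other array, and SA 10 lay within the silwet range, as in UGT73B5. Without the filter the difference in triplet 1 was 1.52 (limma, adjusted p = 0.145), not called, and the SA triplets differed (limma F test, adjusted p = 0.00243). It was at the floor on 5 arrays. UGT73C1, also active on nitrotoluenes and on cytokinins, read 0.601, 22.9 and 38.3 on silwet 1 to 3 and 3.93, 53.6 and 51.8 on SA 10 to 12, and was at the floor on 6 arrays. GSTU22 read 12.1, 18.4 and 30.9 and 7.92, 41.5 and 42.1 there. In both genes SA 11 and SA 12 were the highest arrays, while SA 10 was below silwet 2 and silwet 3. GSTU26, next to GSTU25, went the other way, with 12.3, 13.4 and 19.01 on silwet 1 to 3 and 8.34, 5.31 and 11.96 on SA 10 to 12, and SA 11 was its lowest array. For UGT73B4, UGT73C1 and GSTU22, replicate number 1 was also the lowest array of silwet triplets 1 and 2. Silwet 4 to 6 read 7.05, 21.1 and 32.2 for UGT73B4, 4.35, 18.2 and 21.5 for UGT73C1 and 7.59, 12.2 and 27.8 for GSTU22. In SA triplet 1 the parts of SA 10 and of replicate number 1 cannot be told apart.

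**Figure D5:**
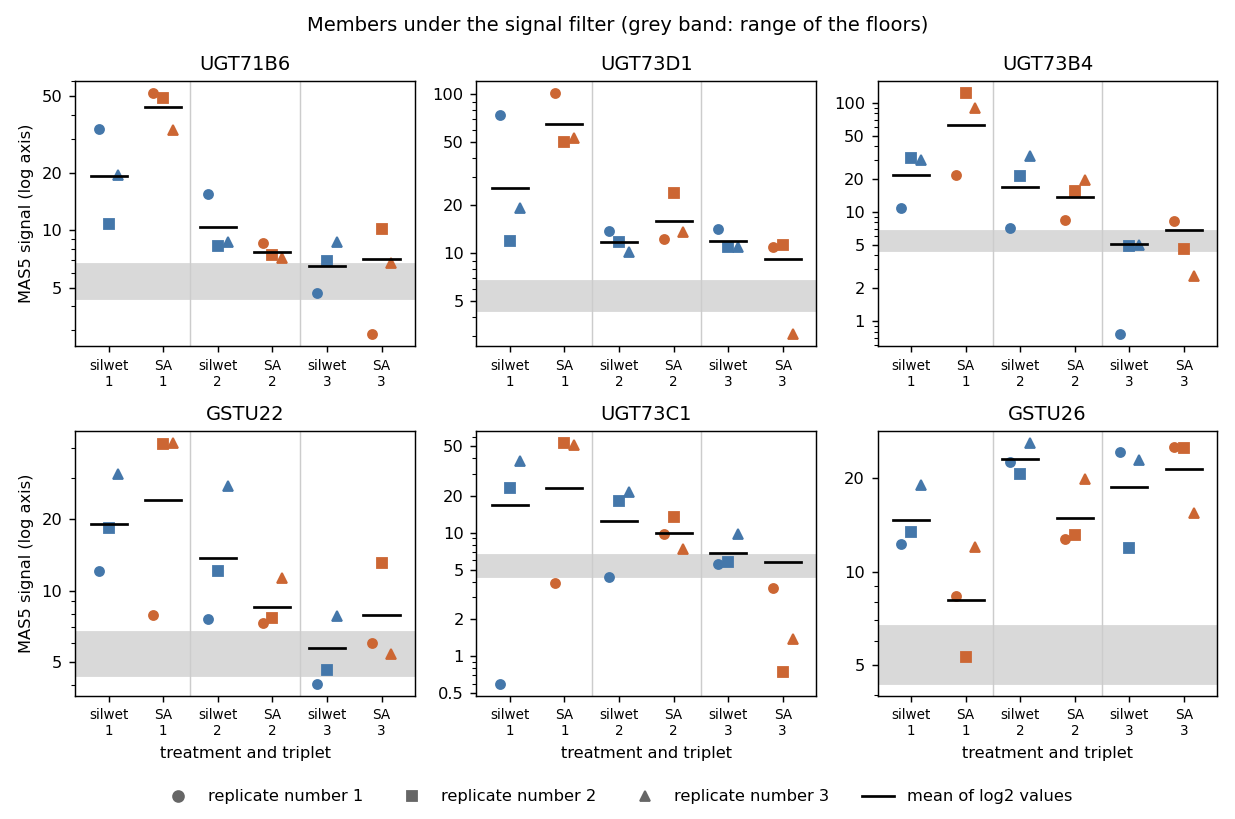
MAS5 signal (log axis) of 6 low members on each array, by treatment and triplet, with the range of the arrays' floors as a grey band and the mean of the floored log2 values as a bar. SA 11 and SA 12 are the highest arrays for UGT73B4, GSTU22 and UGT73C1, while SA 10 is not. For these members silwet 1 and silwet 4, also of replicate number 1, are the lowest arrays of their triplets.

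None of the other low members had a signal above 39.5, that of UGT71C3 on silwet 8. They were GSTU15, GSTU21, GSTU23 and GSTU28 of the tau class, UGT71B5, UGT71B8, UGT71C1, UGT71C2 and UGT71C3, UGT73C7, UGT76D1, which glucosylates dihydroxybenzoic acids made from SA, UGT76E1, UGT76E2, UGT84B1, an auxin glucosyltransferase, UGT84B2, UGT85A3 and UGT85A7, beside UGT74F1 and the 4 members at the floor throughout.

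By position, 30 of the 58 members lie in 12 runs of genes that follow each other with no other protein-coding gene between them, in the gene order of RefSeq's TAIR10.1 annotation. In the run of GSTU20 to GSTU23, GSTU20 was tested and the other 3 were low, and their SA triplet 2 minus triplet 1 differences ran from -1.49 for GSTU22 to 0.83 for GSTU20. Differences of both signs also stood side by side in the runs of UGT71C3, UGT71C4 and UGT71C5, of UGT85A7, UGT85A2, UGT85A5 and UGT85A3, and of GSTU25 and GSTU26. UGT73B4 and UGT73B5 had SA triplet 2 minus triplet 1 differences of -2.18 and -2.12.

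Few genes of the wider pathway were named on the array by these symbols. Of 18 listed genes of SA synthesis and turnover 2 were named, of 23 for glutathione supply and recycling 2, of 23 for UDP-sugar supply 1, of 17 response partners 2, of 22 conjugate transporters 0, and of 16 TGA factors and SA receptors 0. GRX480, a glutaredoxin that binds TGA factors and is induced by SA, was the only one of these and of the tissue markers and DFR called in triplet 1, at 2.06 (limma, SE 0.442, adjusted p = 0.00754). In triplets 2 and 3 its differences were 0.41 and 0.26, neither called. AIM1 and BSMT1 of SA turnover, USP of UDP-sugar supply, GR and GR1 of glutathione recycling, and the xenobiotic response gene AER were not called in triplet 1, with differences from -0.52 for BSMT1 to 0.16 for AER.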

How the data were processed

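RNA of 18 Col-0 samples was hybridised to ATH1 arrays. The authors deposited 1 intensity value per probe set, named MAS5 per the submitters' processing notes with no version given, and the mean without the top and bottom 2% is about 100 on every array. No counts or detection calls were used, so precision rests on how many arrays there are. Groups came from the sample titles. All 58 members matched RefSeq's gene table by gene identifier. Of the 22810 probe sets, 13513 name 1 gene, 503 several and 8794 none.

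On each array the 20th percentile was the lowest signal allowed before log2 values were formed. Tests left out 64 controls and any probe set whose mean fell under the 40th percentile. limma 3.58.1 in R 4.3.3 fitted the 6 treatment and triplet means to the 18 arrays, with eBayes (trend, robust) and Benjamini-Hochberg adjustment over 13652 probe sets at 0.05. In that fit, the SA minus silwet difference in each triplet was tested. F tests there covered triplets within a treatment and the SA effect between triplets. The SA minus silwet difference over all arrays came from a separate fit of the treatment means without triplets. Replicate numbers were tested with an F test in a fit that adds them to the 6 means. On simulated data the triplet 1 test called 63 of 100 probe sets raised 2-fold, 92 of 100 raised 4-fold and 4 of 13452 unchanged. The simulated noise was independent between arrays, with no replicate effect, and few probe sets were changed. These rates may therefore not hold for the real arrays.

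Replicate numbers were taken to pair arrays: deviations of same-numbered SA and silwet arrays correlated at 0.604, 0.562 and 0.627, and differently numbered ones at -0.059 or below. Deviations from the mean of a group sum to 0, so the low values for different numbers follow largely from the same-numbered ones. They are no separate evidence of pairing. The main fit has no block, apart from the test of replicate numbers itself. Alternatives were no floor, log2(signal + 16), no filter, a 60th percentile filter, quantile normalization, median centring, eBayes without trend and robust, the replicate block, and leaving out each array. Genes were named as up to 8 called members per direction in each comparison, a list of genes with known roles, neighbours of called members, and the highest and lowest members of each class, with the exceptions stated. The members, lists and tests were chosen with earlier results of these data known.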

Additional observations from a re-analysis of the deposited data

Results flagged for a closer look

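The SA minus silwet difference changed between triplets for 3 members (limma F test over triplets): UGT78D1 at an adjusted p of 0.00138, GSTU27 at 0.0282 and UGT73B5 at 0.0397. SA 10, whose log2 ratio of the actin 3' to 5' probe sets was 6.85, is among the arrays behind each of them. Without SA 10, UGT78D1 and UGT73B5 were called and GSTU27 was not (adjusted p = 0.0594). The part of SA 10 in the other values of SA triplet 1 was not tested beyond leaving it out.

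Among the 9 arrays of 1 treatment, 4 members had 1 array far from the rest. GSTF4 had a log2 signal of 3.79 on silwet 9, below 4.45 to 4.95 on the other silwet arrays. UGT85A2 had 7.35 on silwet 1, above 6.36 to 6.85. UGT85A5 had 6.86 on silwet 7, above 5.26 to 5.90. UGT88A1 had 7.89 on silwet 6, below 8.55 to 9.15. For UGT85A5 the SA array of the same triplet rank and replicate number, SA 16, was likewise the highest SA array, at 7.03. For UGT88A1 that array, SA 15, was likewise the lowest SA array, at 7.89. For GSTF4 on SA 18 (4.77) and UGT85A2 on SA 10 (6.59) it was no extreme of the SA arrays. With SA 10's actin ratio the flagged arrays make 5 of 66 groups of 9 examined, and chance gives about 1 in 20.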

How the results depend on the processing

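For members called with all arrays, no difference changed sign under the alternatives tried, reading triplet 2 minus triplet 1 in the F tests of triplets and replicate 3 minus replicate 1 in that of replicate numbers. Among the triplet 1 differences, that of UGT76C2, which was not called, changed sign without SA 10, from -0.04 to 0.09. Uncalled differences in other tests changed sign without SA 10 too, such as that of GSTU16 between SA triplets 2 and 1, from -0.06 to 0.07. The number of members higher with SA in triplet 1 was 2 and became 1 without the filter, where UGT73B5 was not called (adjusted p = 0.0667, and 0.0597 for its SA effect between triplets, so that 2 members in place of 3 were called there), and 1 with the 60th percentile filter, where 18 members were tested and UGT73B5 was not among them. With that filter the count for replicate numbers went from 2 to 0, while 1044 of all probe sets were called in place of 1159. With the replicate block, silwet triplets differed for 1 member, GSTU25, in place of 0. The share of all probe sets called there was 1.82% in place of 1.14%. GSTU27 in triplet 1 and UGT87A2 in the test of the SA effect between triplets were called as given above. Over all probe sets, calls with the block rose to 8.56% higher with SA in triplet 1 and to 13.4% for the SA effect. The block changed no other call of a member. Leaving out 1 array at a time, the members called in triplet 1 numbered 0 to 2 higher and 1 to 2 lower with SA. For the SA effect between triplets they numbered 1 to 4, and between SA triplets 10 to 14. Between silwet triplets they numbered 0 to 1 and between replicate numbers 0 to 4. The number of all probe sets called moved as well, from 931 to 1729 in triplet 1 in either direction. It ran from 686 to 1167 for the SA effect, 2906 to 4205 between SA triplets and 85 to 190 between silwet triplets. For replicate numbers the 0 came without silwet 6 and without SA 18, and for the higher members of triplet 1 without silwet 2, silwet 3 or SA 11. Without SA 10, and as a choice made after seeing the data, 6 members lay above and 9 below every silwet array of triplet 1, in place of 3 and 4, and without the floor 3 and 4. UGT85A4 between SA triplets was not called with quantile normalization (adjusted p = 0.0542), and GSTL3 not with median centring (0.0586). Low signal limits 28 of the 58 members, 14 of them at the floor on over 9 arrays.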
